A study of Mus musculus with 22 samples.

Results

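The brush border digestion and nutrient transport genes are the peptidases, disaccharidases, microvillus proteins, nutrient receptors and solute carriers with which enterocytes finish digestion and take up nutrients. The set held 41 genes, of 27670 gene names on the array: 8 peptidases, 4 disaccharidases, 11 structural proteins, with the receptors Cubn and Amn counted among them, and 18 solute carriers. Of these, 34 were found by the gene name printed on the array, and 6 more under an older name (Sis, Ezr, Cdhr2, Cdhr5, Slc6a20a and Slc46a1). Naaladl1 matched no probe and was not analysed here. Each gene was read from its brightest probe. Measured values entered the choice of probe only through brightness. The members themselves were chosen with earlier results of these data known. The study profiled ileum and colon of male C57BL/6 mice on chow diet, comparing SIRT1 iKO mice with Flox controls (called iKO and flox below). The labels name SIRT1, a protein deacetylase, and intestinal tissue homeostasis as the subject. They do not spell out iKO, name a Cre driver or give the deleted part of the gene. The 22 arrays came from aged colon iKO (n = 4) and flox (n = 3), aged ileum iKO (n = 4) and flox (n = 3), and young ileum iKO (n = 4) and flox (n = 4). Young mice were 6 to 8 weeks and aged mice 24 months old. The labels number the arrays without saying whether they came from separate mice or whether ileum and colon came from 1 mouse, so p-values measure the spread between these samples.

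The brush border is the carpet of actin-filled microvilli on the luminal face of absorptive cells. Peptidases and disaccharidases anchored in its membrane cut oligopeptides and short sugars into units that the neighbouring carriers import, and a second set of carriers on the basolateral face passes them to the blood. Most of this machinery is known as a property of the small intestine, whereas the colon absorbs mainly water, salts and the short-chain fatty acids made by bacteria.

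On the arrays, 70.4% to 79.7% of spots were well above background in the colon and 49.8% to 61.5% in the ileum. The labelled tissues carried their markers: the summed level of 5 ileal enterocyte markers ran from 4.53 to 6.05 in the colon and 7.94 to 9.16 in the ileum, and that of 4 colon position genes from 2.74 to 4.52 in the colon and -1.53 to 0.07 in the ileum. Levels are log2 signals relative to the 75th percentile of the array. They compare 1 gene across arrays, not genes with each other. Sirt1, read in whole tissue by a probe whose place relative to the deleted part is not given, read 0.47, 0.67, 0.71 and 0.41 on aged colon iKO arrays, against 0.85, 0.86 and 0.83 on aged colon flox arrays. It read 0.35, 0.39, 0.38 and 0.45 on aged ileum iKO arrays, against 0.67, 1.16 and 0.85 on aged ileum flox arrays. In the young ileum it read 0.72, 0.79, 0.77 and 0.83 on iKO arrays, against 1.03, 0.66, 1.25 and 1.00 on flox arrays. The iKO and flox arrays did not overlap in the colon or the aged ileum and overlapped in the young ileum. By limma, Sirt1 differed between iKO and flox by -0.28 ± 0.11 (adjusted p = 0.636) in the colon, -0.50 ± 0.13 (adjusted p = 0.174) in the aged ileum and -0.21 ± 0.12 (adjusted p = 0.9997) in the young ileum, and passed in none.

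A pair of ileum arrays stood apart. Car1, a carbonic anhydrase typical of colonocytes, read 7.86 on aged ileum iKO 2 and 8.26 on aged ileum flox 1, against -2.93 to 2.70 on the other 13 ileum arrays and 8.23 to 8.81 on the colon arrays. Aqp8, a colonocyte water channel, read 5.63 and 6.63 there, against -5.02 to -2.02 on the other ileum arrays and 6.33 to 8.15 in the colon. All 6 colonocyte markers were well above background on both arrays, and at least 5 on every other ileum array. Their summed level on the 2 arrays was 8.34 and 8.80, against 4.14 to 5.46 on the other ileum arrays and 9.05 to 9.70 in the colon. Not every colonocyte marker was at the colon level there. Car4 read 3.02 to 3.80 on the 2 arrays, within its range on the other ileum arrays (1.36 to 4.04). Slc26a3 read 2.91 to 3.41, above the other ileum arrays (1.66 to 2.69) and below the colon (3.78 to 5.34). Hoxb13, a position gene of the distal gut, read -6.30 to -6.04 on both, within its range on the other ileum arrays (-6.90 to -2.12) and below the colon (2.19 to 4.12). The ileal bile acid protein Fabp6 read 3.28 to 3.67 on both, against 3.49 to 4.00 on the other ileum arrays and -4.82 to -2.48 in the colon. For 32 of the 38 members tested in the ileum, the lowest of all 15 ileum levels lay on 1 of these 2 arrays. Only Slc16a1 was highest on 1 of them. The shares of all genes that were lowest or highest there are not given here, so the counts are not particular to the members. The median deviation of the members from their ileum mean was -0.56 on aged ileum iKO 2 and -0.54 on aged ileum flox 1, and -0.20 to 0.41 on the other 13. The counts and medians of the tissue, age and aged genotype comparisons are given with and without them, and what part the colonocyte signal had in those results was not tested. In the colon, iKO 4 carried pancreatic enzyme genes: the summed level of the 5 pancreas markers was 5.20 there and 2.84 to 3.85 on the other colon arrays. Leaving it out gave 0 member calls between iKO and flox colon, as with it.

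**Figure D1:**
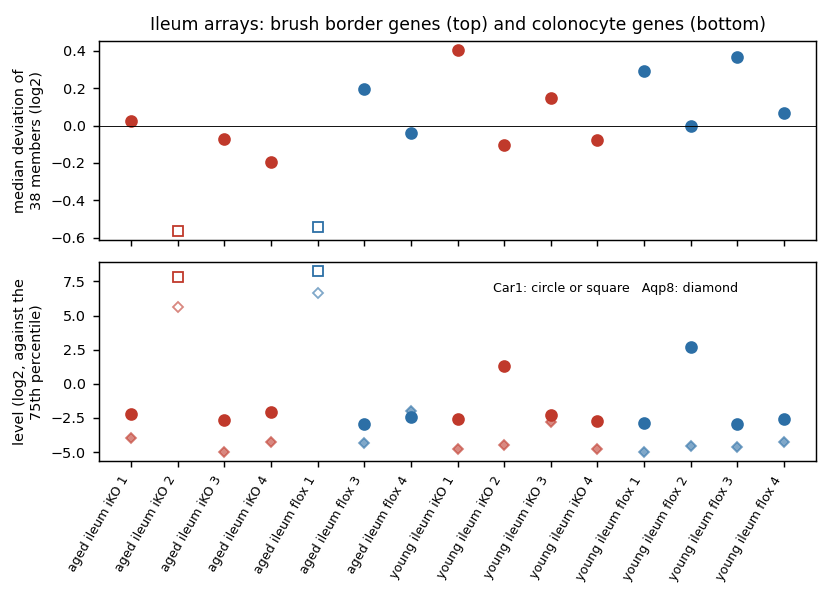
The top panel plots, for each ileum array, the median log2 deviation of 38 brush border genes from their mean over the 15 ileum arrays, and the bottom panel the levels of Car1 and Aqp8. Red stands for iKO and blue for flox. Aged ileum iKO 2 and aged ileum flox 1 (open squares) have the lowest member medians, -0.56 and -0.54, and are the arrays with Car1 at 7.86 and 8.26.

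Between colon and ileum of aged mice, most of the brush border genes were lower in the colon in both genotypes. In iKO mice 32 of the 39 members tested were lower and 2 higher, and in flox mice 33 were lower and 3 higher (limma, adjusted p under 0.05). Of all genes tested, 19.5% were lower and 24.1% higher in iKO colon, and 14.1% lower and 18.6% higher in flox colon. The median difference of the members was -2.38 in iKO and -2.27 in flox on the log2 scale, against 0.07 in iKO and 0.08 in flox over all genes tested. In these whole-tissue samples fewer absorptive cells and less RNA per cell cannot be told apart. The summed level of 7 absorptive enterocyte markers also differed, 6.69 to 7.91 in the colon and 8.51 to 9.33 in the aged ileum, and that of 6 smooth muscle markers was 8.35 to 9.12 in the colon and 7.45 to 8.10 in the aged ileum. Their part in the member differences was not tested. Tissue and slide cannot be told apart either, since no slide held both. Mme entered the test through the ileum alone, so its difference was bound to be large, and Slc19a3 entered through the colon alone. Over the 37 members measured in both tissues, 31 were lower and 2 higher in iKO colon (median -2.38), and 32 lower and 3 higher in flox colon (median -2.27). Slc2a2, the glucose and fructose exporter, was not tested.

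Of the peptidases measured in both tissues, 6 of 6 were lower in the colon in iKO and 6 of 6 in flox. Anpep, aminopeptidase N, which removes neutral residues from peptide ends, read -0.34, -0.02, -0.13 and -0.26 on iKO colon arrays, against 8.14, 7.72, 8.17 and 8.02 on aged iKO ileum arrays. Flox arrays gave -0.34, 0.50 and -0.13 in the colon, against 7.77, 8.24 and 8.06 in the aged ileum. Every colon array lay below every ileum array, with no value between the tissues. The difference was -8.20 ± 0.18 (adjusted p = 6.09e-11) in iKO and -8.01 ± 0.21 (adjusted p = 4.71e-10) in flox. Enpep, aminopeptidase A, which removes acidic residues, differed by -5.88 ± 0.28 (adjusted p = 6.39e-08) in iKO and -6.25 ± 0.33 (adjusted p = 2.13e-07) in flox. Dpp4, which releases dipeptides ending in proline or alanine, differed by -4.08 in iKO and -4.09 ± 0.26 (adjusted p = 9.5e-07) in flox. Mme, neprilysin, which is left out of these counts, was well above background on 0 of 4 iKO and 1 of 3 flox colon arrays, against 3 of 4 iKO and 3 of 3 flox aged ileum arrays. Its measured means were -7.35 in iKO colon and -1.73 in iKO ileum. The ileum mean lay 22.3-fold above the lowest signal well above background in the colon. That mean includes an ileum array not well above background, so the fold is not a strict bound. It is given as a description, since the filter on dim probes fixed that Mme differed. The meprin subunits differed less: Mep1a, of a metalloprotease that cuts larger peptides, differed by -1.31 in iKO and -1.33 in flox, and Mep1b by -2.82 in iKO and -2.93 in flox. Ace, the angiotensin-converting enzyme, differed by -2.31 in iKO and -1.94 in flox.

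Among the disaccharidases, Sis, the sucrase-isomaltase that splits sucrose and isomaltose, read -2.98, -1.59, -1.69 and -0.37 on iKO colon arrays, against 7.06, 5.39, 6.10 and 6.56 on aged iKO ileum arrays. On flox arrays it read -2.18, -1.48 and 0.47 in the colon, against 5.35, 7.48 and 6.78 in the aged ileum. The tissues did not overlap, and within each group the highest and the lowest array lay more than 1 log2 unit apart. The difference was -7.93 ± 0.68 (adjusted p = 4.59e-06) in iKO and -7.60 ± 0.79 (adjusted p = 4.16e-05) in flox. Treh, the trehalase, differed by -5.22 ± 0.54 (adjusted p = 1.79e-05) in iKO and -7.49 ± 0.63 (adjusted p = 8.66e-06) in flox. Mgam, maltase-glucoamylase, which releases glucose from starch fragments, differed by -2.70 in iKO and -2.80 in flox. Lct, lactase, which splits milk sugar, differed by -0.59 ± 0.52 (adjusted p = 0.389) in iKO, not passing, and by -2.16 ± 0.60 (adjusted p = 0.017) in flox.

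The upstream sequences of 4 members, 3 of them lower in the colon in both genotypes and Lct in flox alone, are shown because they hold short motifs of factors known to bind enterocyte genes. The windows are the 250 bases before the start of the gene, from RefSeq (GRCm38.p6), in which 36 of the 41 members matched 47 start sites. Both strands were searched, for HNF4 with the letters CAAAGTCCA. For the CDX family of homeobox factors the letters were TTTATTG. For the zinc finger factors of the GATA family they were AGATAA. For the core of the motif of HNF1, a further homeobox factor, they were GTTAAT. No pair of these 4 motifs overlapped in the windows shown. Capitals mark a match or its reverse complement.
Treh, HNF4 motif, chr9:44672983-44673232 (plus strand): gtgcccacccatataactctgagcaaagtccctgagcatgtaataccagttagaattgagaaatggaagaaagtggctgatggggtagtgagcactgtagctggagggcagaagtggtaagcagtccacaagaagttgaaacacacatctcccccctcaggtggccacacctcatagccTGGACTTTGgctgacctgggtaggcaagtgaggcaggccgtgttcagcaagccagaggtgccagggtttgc
Slc3a1, GATA, CDX and HNF4 motifs, chr17:85028097-85028346 (plus strand): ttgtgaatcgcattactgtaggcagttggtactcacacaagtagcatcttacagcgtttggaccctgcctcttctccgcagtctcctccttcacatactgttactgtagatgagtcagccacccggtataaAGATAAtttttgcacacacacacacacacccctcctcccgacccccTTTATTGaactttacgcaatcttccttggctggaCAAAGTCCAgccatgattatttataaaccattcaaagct
Sis, HNF1 core and CDX motif, chr3:72967864-72968113 (minus strand): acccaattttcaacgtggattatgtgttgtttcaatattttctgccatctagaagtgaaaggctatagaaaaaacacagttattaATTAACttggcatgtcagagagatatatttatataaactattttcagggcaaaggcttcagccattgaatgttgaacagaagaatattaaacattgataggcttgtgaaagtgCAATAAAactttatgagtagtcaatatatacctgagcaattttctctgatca
Lct, a pair of GATA motifs, chr1:128328319-128328568 (minus strand): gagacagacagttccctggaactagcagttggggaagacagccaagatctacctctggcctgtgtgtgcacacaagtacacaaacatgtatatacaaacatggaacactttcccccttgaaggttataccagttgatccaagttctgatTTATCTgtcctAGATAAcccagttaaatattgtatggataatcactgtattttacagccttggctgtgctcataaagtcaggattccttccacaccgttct
The HNF4 motif stood in 2 of 47 member windows (4.26%), those of Treh and Slc3a1, and in 0.384% of all 32851 windows. The GATA motif stood in 17% of member windows and 9.99% of all. The CDX motif was in 8.51% of member windows and 4.2% of all, and the HNF1 core in 8.51% and 6.43%. The TATA box letters TATAAA were searched too and stood in 12.8% of member windows and 12.4% of all. They are not marked in the windows shown, though those of Sis and Slc3a1 hold them. These matches describe letters in these windows only.

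The structural proteins were lower in the colon by smaller amounts, except the scaffold Pdzk1 and the cobalamin receptor. They passed as lower for 10 of 11 in iKO and 11 of 11 in flox, with medians of -1.41 in iKO and -1.14 in flox, against -3.45 in iKO and -3.51 in flox for the 6 peptidases measured in both tissues. Vil1, villin, which bundles the actin core of the microvillus, read 6.28, 6.29, 6.30 and 6.40 on iKO colon arrays, against 8.16, 7.86, 8.08 and 7.94 on aged iKO ileum arrays. Flox arrays gave 6.60, 6.68 and 6.14 in the colon, against 7.79, 8.17 and 7.99 in the aged ileum. The tissues did not overlap, and villin was well above background on every colon array. It differed by -1.70 ± 0.13 (adjusted p = 1.77e-06) in iKO and -1.51 ± 0.15 (adjusted p = 2.69e-05) in flox. Myo1a, the motor that ties actin to the membrane, differed by -1.41 in iKO and -1.37 in flox, and Espn, another actin bundler, by -1.55 in iKO and -1.14 in flox. Cdhr2 and Cdhr5, the cadherins that link microvillus tips, differed by -1.11 in iKO and -1.10 in flox and by -1.06 in iKO and -0.97 in flox. Myo7b and Ush1c, the motor and scaffold of that tip link, differed by -1.05 in iKO and -1.03 in flox and by -0.27 in iKO and -0.47 in flox. Ezr, which joins actin to membrane proteins, differed by -0.93 in iKO and -0.67 in flox. Of these 8 proteins of the microvillus itself, only Ush1c in iKO did not pass (adjusted p = 0.051), and it passed without the 2 arrays with colon-level Car1, at -0.29 ± 0.10 (adjusted p = 0.0463). The Ezr call in flox was lost under 4 of 25 alternatives.

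Pdzk1, a scaffold that holds carriers at the membrane, read -5.05, -3.99, -4.52 and -4.81 on iKO colon arrays, against 4.18, 1.73, 3.89 and 3.80 on aged iKO ileum arrays. On flox arrays it read -4.45, -4.78 and -4.26 in the colon, against 2.63, 5.43 and 5.07 in the aged ileum. The tissues did not overlap, and within each aged ileum group the lowest level was on the array with colon-level Car1. The difference was -7.99 ± 0.62 (adjusted p = 2.29e-06) in iKO and -8.87 ± 0.72 (adjusted p = 6.85e-06) in flox. Without those 2 arrays it was -8.55 ± 0.24 (adjusted p = 1.19e-08) in iKO and -9.74 ± 0.28 (adjusted p = 2.47e-08) in flox. Cubn, cubilin, which binds intrinsic factor with its cobalamin, differed by -6.71 ± 0.53 (adjusted p = 2.37e-06) in iKO and -6.68 ± 0.61 (adjusted p = 1.63e-05) in flox. Amn, amnionless, which carries cubilin to the surface, differed by -4.26 ± 0.45 (adjusted p = 2.15e-05) in iKO and -3.49 in flox.

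The solute carriers were the role with members on both sides of 0. Slc6a19, the main apical carrier of neutral amino acids, lay far lower in the colon in both genotypes. It read -5.38, -5.10, -5.61 and -4.75 on iKO colon arrays, against 3.88, 3.31, 3.86 and 3.71 on aged iKO ileum arrays. Flox arrays gave -5.78, -6.00 and -5.34 in the colon, where 2 of 3 arrays were well above background, against 2.80, 3.47 and 3.54 in the aged ileum. Colon and ileum levels did not overlap. The difference was -8.90 ± 0.23 (adjusted p = 1.84e-10) in iKO and -8.98 ± 0.27 (adjusted p = 1.29e-09) in flox. The other apical amino acid carriers were lower too. Slc7a9, the light chain of the carrier of cystine and dibasic amino acids, differed by -5.81 ± 0.29 (adjusted p = 7.63e-08) in iKO and -5.73 ± 0.33 (adjusted p = 5.06e-07) in flox. Its heavy chain Slc3a1 differed by -3.45 in iKO and -3.21 in flox. Slc6a20a, a proline carrier, differed by -4.26 ± 0.69 (adjusted p = 0.000454) in iKO and -5.10 ± 0.80 (adjusted p = 0.000629) in flox. Slc1a1, for glutamate and aspartate, differed by -2.41 in iKO and -2.51 in flox.

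Of the remaining carriers, Slc28a2, for purine nucleosides, differed by -4.64 ± 0.32 (adjusted p = 9.51e-07) in iKO and -4.31 ± 0.37 (adjusted p = 1.06e-05) in flox. Slc34a2, for phosphate, differed by -3.89 in iKO and -3.35 in flox. The sodium and glucose carrier Slc5a1 differed by -2.24 in iKO and -2.27 in flox, and the fructose carrier Slc2a5 by -2.38 in iKO and -2.24 in flox, all passing. The peptide carrier Slc15a1 passed in iKO (-1.47 ± 0.51, adjusted p = 0.0354) and not in flox (-1.28 ± 0.59, adjusted p = 0.117), and the difference between the genotypes did not pass (-0.19 ± 0.78, adjusted p = 0.976). Its iKO call was lost under 7 of 25 alternatives, among them genotype and number as a replicate block and array position as a term, and without the 2 arrays with colon-level Car1 Slc15a1 also passed in flox, at -1.84 ± 0.56 (adjusted p = 0.0321). The basolateral carriers of dibasic and of neutral amino acids, Slc7a7 and Slc7a8, differed by -2.66 in iKO and -2.47 in flox and by -0.73 in iKO and -1.18 in flox. The Slc7a8 call in iKO was lost under 14 of 25 alternatives. Slc2a2 was well above background on no colon array and on 1 of 4 iKO and 2 of 3 flox aged ileum arrays. Its measured means were -7.55 in iKO colon and -5.24 in iKO ileum. Most iKO ileum arrays were themselves not well above background, so no fold is given. In flox the means were -8.50 in the colon and -3.42 in the ileum, the latter with an array not well above background.

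Slc16a1, the carrier of lactate and short-chain fatty acids, read 4.35, 4.61, 4.50 and 4.16 on iKO colon arrays, against 2.64, 3.54, 2.74 and 2.66 on aged iKO ileum arrays. On flox arrays it read 4.26, 5.17 and 4.26 in the colon, against 3.82, 2.79 and 2.96 in the aged ileum. It was higher on every colon array, and the highest ileum level of each genotype was on the array with colon-level Car1. The difference was 1.51 ± 0.28 (adjusted p = 0.00117) in iKO and 1.37 ± 0.33 (adjusted p = 0.00747) in flox, and 1.73 ± 0.21 (adjusted p = 0.000156) in iKO and 1.69 ± 0.25 (adjusted p = 0.000864) in flox without those arrays. Slc40a1, ferroportin, which exports iron to the blood, read 2.72, 3.48, 3.40 and 3.41 on iKO colon arrays, against 2.14, 2.20, 2.63 and 2.50 on aged iKO ileum arrays. Flox arrays gave 3.70, 3.39 and 3.89 in the colon, against 2.55, 2.36 and 2.23 in the aged ileum. The tissues did not overlap, and Slc40a1 was higher in the colon by 0.88 ± 0.18 (adjusted p = 0.00225) in iKO and 1.28 ± 0.21 (adjusted p = 0.000877) in flox. Slc46a1, the proton-coupled folate carrier, rose in flox colon (1.27 ± 0.34, adjusted p = 0.0141) and did not pass in iKO (0.72 ± 0.30, adjusted p = 0.0656). Slc11a2, the apical iron carrier, differed by -0.16 ± 0.15 (adjusted p = 0.428) in iKO and -0.26 ± 0.17 (adjusted p = 0.27) in flox and did not pass in either. Slc19a3, a thiamine carrier, was well above background on 2 of 4 iKO and 1 of 3 flox aged ileum arrays and did not pass. In flox it differed by 0.05 ± 0.81 (adjusted p = 0.966), and by 1.15 ± 0.50 (adjusted p = 0.109) without the 2 arrays with colon-level Car1.

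Over the alternatives run, each array left out among them, 32 to 36 members passed in iKO and 33 to 38 in flox. Without the 2 arrays with colon-level Car1, 34 members were lower and 2 higher in iKO, and 35 lower and 3 higher in flox, of 40 tested. The medians were then -2.63 in iKO and -2.67 in flox. Whether the genotypes differed in the tissue contrast was tested as an interaction, and 0 of 39 members passed by limma, against 0.0357% of all genes. At an unadjusted p under 0.05 there was 1 member, against 1172 of 19621 genes. Without the 2 arrays with colon-level Car1, 0 of 40 members passed, with 4 at an unadjusted p under 0.05. The member with the smallest p was Treh (2.27 ± 0.83, adjusted p = 0.769), followed by Lct (1.57 ± 0.80, adjusted p = 0.83), Slc34a2 (-0.53 ± 0.29, adjusted p = 0.83), Espn (-0.40 ± 0.26, adjusted p = 0.843) and Slc40a1 (-0.40 ± 0.28, adjusted p = 0.844).

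**Figure D2:**
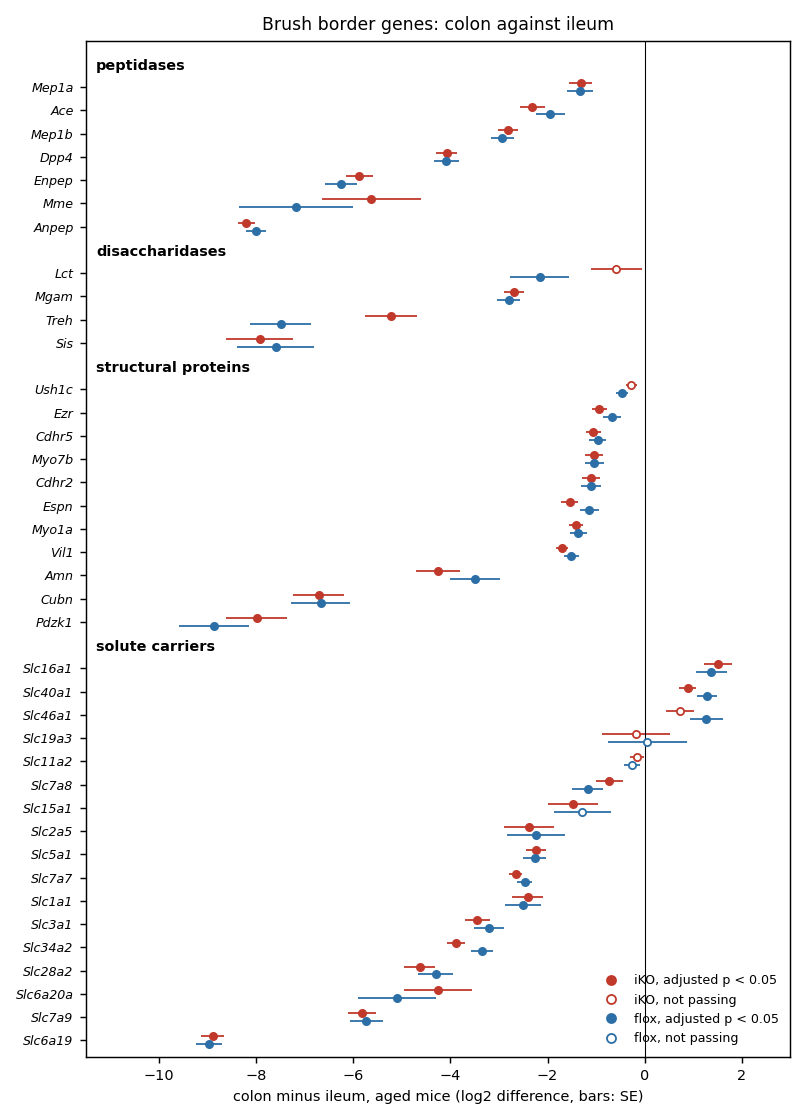
Log2 difference between colon and ileum of aged mice for the 39 members tested, by role, with iKO in red above flox in blue and bars of 1 SE. Filled symbols passed at an adjusted p under 0.05. Mme was tested through the ileum alone. Peptidases and most carriers reach far below 0, microvillus proteins lie close to it, and Slc16a1, Slc40a1 and Slc46a1 lie above it.

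**Figure D3:**
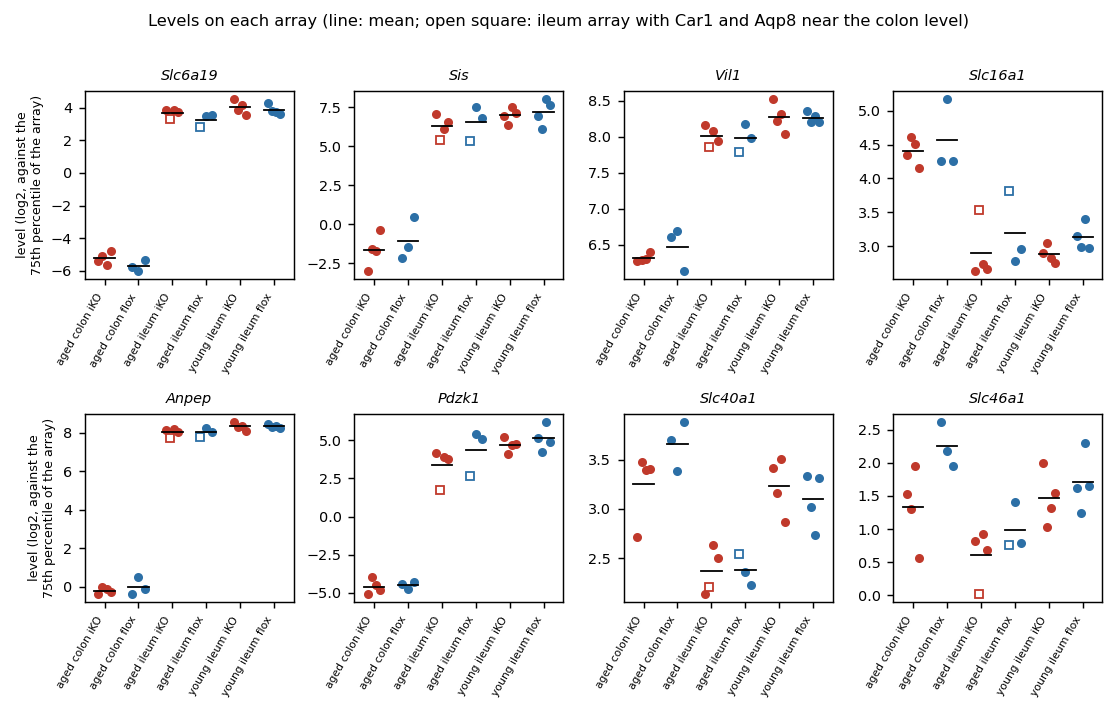
Levels of 8 members on every array, as log2 signal relative to the 75th percentile of the array, by group, with iKO in red, flox in blue and a line at the group mean. Open squares are aged ileum iKO 2 and aged ileum flox 1. Slc6a19, Anpep, Sis, Pdzk1 and Vil1 are lower on all 7 colon arrays than on any ileum array, and Slc16a1 is higher on all 7.

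With age, most members had negative differences in the ileum, and few of them passed. In iKO ileum 34 of 38 members had a negative difference, aged minus young, with a median of -0.32, and 1 passed. In flox ileum 35 of 38 were negative, with a median of -0.39, and 3 passed. The median over all genes tested was -0.02 in iKO and -0.02 in flox, and 5.83% of all genes passed as lower in iKO and 5.29% in flox. Without aged iKO 2 and aged flox 1, the arrays with colon-level Car1, 28 of 39 members were negative in iKO (median -0.21, 2 passing). In flox 24 of 39 were then negative (median -0.17, 0 passing, 5 at an unadjusted p under 0.05). Age and place on the slide cannot be told apart, since young samples took places 1 and 2 and aged samples places 3 and 4. The flox count dropped to 0 or 1 when any of young flox 1, 3 or 4, aged flox 1 or 4, or aged iKO 3 or 4 was left out, and the iKO count was 2 or 3 without young flox 3, aged flox 1 or aged flox 3.

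Cell type markers were read with age beside the members. The 5 ileal enterocyte markers were negative in 5 of 5 cases in iKO and 5 of 5 in flox, with 2 passing in iKO and 2 in flox. Their summed level was 8.25 to 8.57 on aged iKO arrays, against 8.79 to 9.16 on young iKO arrays, and 7.94 to 8.56 on aged flox arrays, against 8.66 to 9.13 on young flox arrays. Aged and young arrays did not overlap in this level in either genotype. Of 7 absorptive enterocyte markers 6 were negative in iKO, 1 passing, and 7 in flox, 1 passing. All 4 Paneth cell markers were negative in both genotypes, 0 passing in iKO and 1 in flox, with summed levels of 8.94 to 9.27 on aged and 9.36 to 9.82 on young iKO arrays, and of 8.58 to 9.29 on aged and 9.09 to 9.57 on young flox arrays. Of 5 fibroblast markers 5 were negative in iKO, 2 passing, and 4 in flox, 0 passing. Of 6 smooth muscle markers 6 were negative in iKO and 2 in flox. For goblet cells 4 of 5 markers were negative in each genotype, and for T cells 2 of 4 in iKO and 3 of 4 in flox. In these 3 lists 0 passed. Other lists went the other way. Of 6 colonocyte markers 6 were positive in iKO and 3 in flox, with the 2 arrays with colon-level Car1 included. Of 4 enteroendocrine markers tested 4 were positive in iKO and 3 in flox, of 4 fat markers 4 and 3, and of 4 B and plasma cell markers 3 and 4. None of these passed. Of 2 pancreas markers tested, 1 passed as higher in each genotype. The part of these cells in the member differences was not tested.

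Slc40a1, ferroportin, was lower with age in both genotypes. It read 2.14, 2.20, 2.63 and 2.50 on aged iKO arrays, against 3.42, 3.16, 3.51 and 2.87 on young iKO arrays. On flox arrays it read 2.55, 2.36 and 2.23 in aged ileum, against 3.34, 3.02, 2.74 and 3.31 in young ileum. Aged and young arrays did not overlap in either genotype. Slc40a1 fell by 0.87 ± 0.17 in iKO (adjusted p = 0.00892) and by 0.73 ± 0.19 in flox (adjusted p = 0.0312). Without the 2 arrays with colon-level Car1 the differences were -0.81 ± 0.19 (adjusted p = 0.0311) in iKO and -0.81 ± 0.22 (adjusted p = 0.063) in flox. Within slides that held both ages they ran from -1.22 to -0.53 over 3 slides in iKO and -0.66 to -0.35 over 2 slides in flox. The call was kept in iKO under each of the 25 alternatives run and lost in flox under 10 of 25.

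In flox mice the glucose carrier Slc5a1 and the basolateral carrier Slc7a7 also passed. Slc5a1 read 3.26, 4.03 and 3.69 in aged flox ileum, against 4.44, 4.25, 4.35 and 4.62 in young flox ileum. Slc7a7 read 6.01, 6.16 and 6.18 in aged flox ileum, against 6.85, 6.77, 6.63 and 6.51 in young flox ileum. For both genes the highest aged array lay below the lowest young one. Slc5a1 differed by -0.75 ± 0.21 (adjusted p = 0.0431), and by -0.55 ± 0.19 (adjusted p = 0.123) without the arrays with colon-level Car1. A second Slc5a1 probe differed by -0.73. Slc7a7 differed by -0.58 ± 0.16 (adjusted p = 0.0415), and by -0.52 ± 0.18 (adjusted p = 0.124) without those arrays. The flox call was lost under 13 of 25 alternatives for Slc5a1 and under 15 of 25 for Slc7a7, the mean over probes among them for both. In iKO mice Slc5a1 differed by -0.38 ± 0.19 (adjusted p = 0.222) and Slc7a7 by -0.26 ± 0.15 (adjusted p = 0.27), and neither passed.

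Enpep came next to the threshold. It read 5.97, 5.38, 5.96 and 5.77 in aged iKO ileum, against 6.29, 6.35, 6.41 and 6.27 in young iKO ileum, and 5.27, 6.10 and 6.00 in aged flox ileum, against 6.37, 6.11, 6.45 and 6.35 in young flox ileum. Every aged array lay below every young array of its genotype, with the 2 arrays with colon-level Car1 lowest. It differed by -0.56 ± 0.17 (adjusted p = 0.0535) in iKO and -0.53 ± 0.19 (adjusted p = 0.0926) in flox, not passing, and by -0.43 ± 0.10 (adjusted p = 0.0275) in iKO, passing, and -0.27 ± 0.11 (adjusted p = 0.183) in flox without those arrays. Of the members named by smallest p that did not pass, Slc46a1 differed by -0.86 ± 0.27 (adjusted p = 0.0574) in iKO, Myo1a by -0.36 ± 0.14 (adjusted p = 0.109) in iKO, Cubn by -1.33 ± 0.51 (adjusted p = 0.112) in iKO and Ezr by -0.43 ± 0.13 (adjusted p = 0.0647) in flox. Aged and young arrays did not overlap for 7 members in iKO and 7 in flox, all lower with age, against 10.8% of all genes in iKO and 15% in flox, counted where a gene had a value on every array of both groups.

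By role, the medians with age were -0.31 in iKO and -0.30 in flox for the 7 peptidases and -0.32 in iKO and -0.30 in flox for the 4 disaccharidases. They were -0.26 in iKO and -0.28 in flox for the 11 structural proteins and -0.36 in iKO and -0.49 in flox for the 16 solute carriers tested. No peptidase, disaccharidase or structural protein passed. The difference between genotypes in the age contrast passed for 0 of 38 members, with 0 at an unadjusted p under 0.05, and for 0% of all genes. The smallest p belonged to Slc7a7 (0.32 ± 0.22, adjusted p = 0.999), Slc5a1 (0.37 ± 0.29, adjusted p = 0.999), Cubn (-0.80 ± 0.75, adjusted p = 0.999), Mep1b (0.25 ± 0.24, adjusted p = 0.999) and Slc7a9 (0.28 ± 0.31, adjusted p = 0.999).

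**Figure D4:**
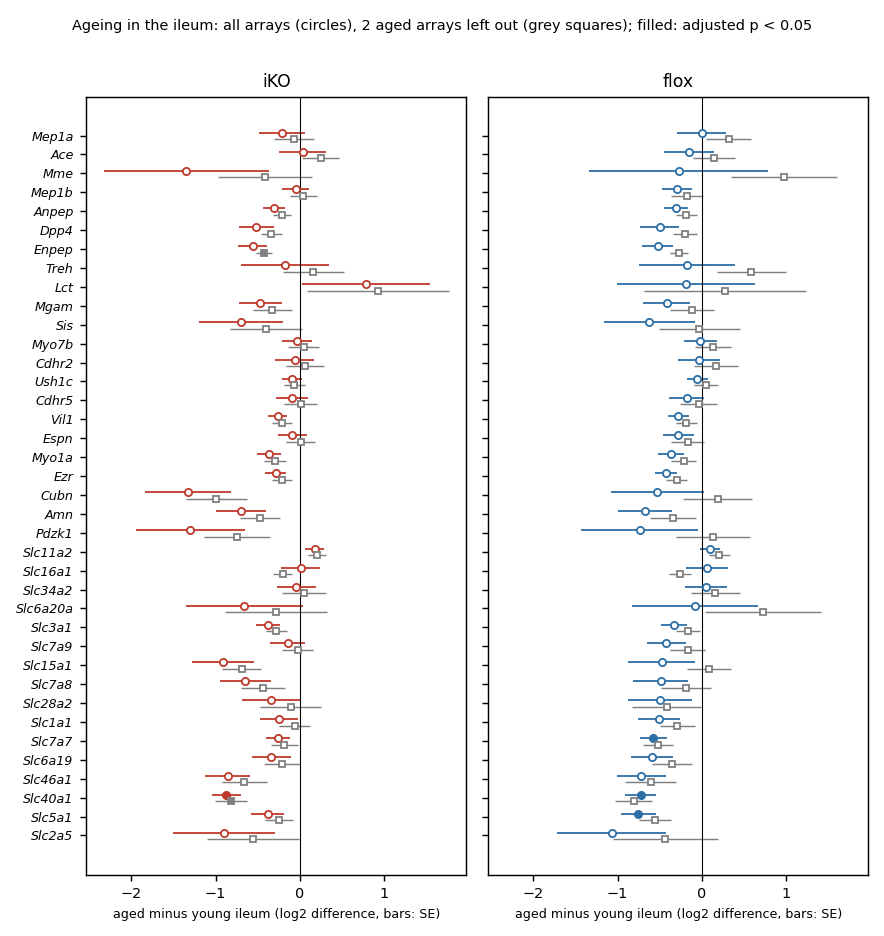
Log2 difference between aged and young ileum for the 38 members tested, with iKO on the left and flox on the right and bars of 1 SE. Circles use all arrays, and grey squares leave out aged ileum iKO 2 and aged ileum flox 1. Most circles lie below 0 and most squares nearer to it, while Slc40a1 stays below 0 in both genotypes.

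Between iKO and flox, no member passed in any tissue or age. In the colon 0 of 38 passed, with 5 at an unadjusted p under 0.05 by limma, in the aged ileum 0 of 38 with 2 and in the young ileum 0 of 38 with 1. Few genes of any kind passed: 0.118% of all genes in the colon, 0.168% in the aged ileum and 0.0452% in the young ileum. The member medians were -0.12 in the colon, -0.06 in the aged ileum and -0.12 in the young ileum, and those of all genes -0.01, 0.02 and 0.00. Without the 2 arrays with colon-level Car1, 0 of 39 members passed in the aged ileum, with 6 at an unadjusted p under 0.05, 27 were negative and the median was -0.19. The aged median was -0.28 without aged flox 1, 0.09 without aged flox 3 and 0.05 without aged iKO 2, so its sign rested on single arrays. The young median was 0.00 without young flox 3. In the colon and the young ileum all iKO arrays shared 1 slide position and all flox arrays another, so genotype and position cannot be told apart there. In the aged ileum the 2 genotypes met on 1 slide only.

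The summed levels of 3 cell type marker lists lay apart in iKO and flox colon, and their part in the member differences was not tested. The summed level of 4 Paneth cell markers was 4.57 to 7.71 on iKO arrays, against 3.51 to 4.56 on flox arrays. For 5 goblet cell markers it was 10.42 to 10.56 on iKO arrays, against 9.93 to 10.30 on flox arrays, and for 5 B and plasma cell markers 5.73 to 6.46 on iKO arrays, against 4.75 to 5.45 on flox arrays. All iKO arrays lay above all flox arrays in these 3 levels, barely so for the Paneth cell markers. The other cell type marker lists read overlapped between the genotypes in the colon. No single marker of the 3 lists passed by limma. The 7 absorptive enterocyte markers had a median difference of -0.53, 4 of 7 were at an unadjusted p under 0.05 and 0 passed by limma. Their summed level was 6.69 to 7.39 on iKO arrays, against 6.81 to 7.91 on flox arrays, with overlap.

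Treh had the largest genotype difference of the members tested, in the colon. It read -2.44, -2.81, -2.36 and -2.98 on iKO colon arrays, against -5.33, -4.04 and -5.60 on flox colon arrays. All iKO arrays lay above all flox arrays, and every one of the 7 was well above background. The difference was 2.34 ± 0.38 (adjusted p = 0.132) (95% interval 1.46 to 3.23), not passing, and 1.23 to 3.24 on the 3 slides that held both genotypes. It passed only without colon flox 3, the highest flox array. In the ileum Treh differed by 0.07 ± 0.57 in aged and 0.07 ± 0.53 in young mice. Its 95% interval spanned -1.15 to 1.29 in the aged and -1.06 to 1.20 in the young ileum. The aged difference was -0.36 ± 0.43 (adjusted p = 0.792) without the 2 arrays with colon-level Car1.

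Cubn, the cobalamin receptor, had a negative difference, iKO minus flox, in all 3 settings. In the colon it read -3.96, -3.70, -3.20 and -2.68 on iKO arrays, against -2.04, -2.20 and -1.61 on flox arrays. In the aged ileum it read 4.36, 2.31, 3.39 and 3.25 on iKO arrays, against 3.29, 5.74 and 5.14 on flox arrays, and in the young ileum 4.75, 4.38, 4.49 and 4.99 on iKO arrays, against 4.98, 4.58, 6.15 and 5.29 on flox arrays. The genotypes did not overlap in the colon and overlapped in the ileum, where aged iKO 2 and aged flox 1 were the lowest of their groups. Cubn differed by -1.43 ± 0.32 (adjusted p = 0.275) in the colon, -1.40 ± 0.55 (adjusted p = 0.352) in the aged ileum and -0.60 ± 0.51 (adjusted p = 0.9997) in the young ileum. Without the 2 arrays with colon-level Car1 the aged difference was -1.77 ± 0.43 (adjusted p = 0.154). Its partner Amn averaged -0.04 ± 0.80 in iKO and 0.96 ± 0.84 in flox colon (SD, n = 4 and 3), and differed by -0.23 in the aged and -0.21 in the young ileum, without passing in any of them.

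Slc7a8, the basolateral carrier of neutral amino acids, had negative differences throughout. In the colon it read -0.62, -0.99, -0.85 and -1.19 on iKO arrays, against -0.57, -0.52 and -0.25 on flox arrays. In the aged ileum it read 0.44, -0.82, -0.06 and -0.31 on iKO arrays, against 0.13, 1.27 and 0.79 on flox arrays, and in the young ileum 0.68, 0.15, 0.46 and 0.55 on iKO arrays, against 1.17, 0.63, 1.82 and 1.25 on flox arrays. The genotypes overlapped in the ileum at both ages and not in the colon. It differed by -0.47 ± 0.16 (adjusted p = 0.541) in the colon, -0.92 ± 0.32 (adjusted p = 0.3) in the aged ileum and -0.76 ± 0.30 (adjusted p = 0.9997) in the young ileum, where within-slide differences ran from -1.27 to 0.05. The meprin subunit Mep1a differed by -0.49 ± 0.16 (adjusted p = 0.529) in the colon, -0.51 in the aged and -0.30 in the young ileum. Slc46a1, the folate carrier, differed by -0.92 ± 0.33 (adjusted p = 0.575) in the colon, where the highest iKO and the lowest flox array both read 1.95 after rounding. Slc28a2, for purine nucleosides, had positive differences, of 0.41 in the colon, 0.74 ± 0.38 (adjusted p = 0.453) in the aged and 0.59 ± 0.35 (adjusted p = 0.9997) in the young ileum.

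The other members named by smallest p did not pass either. In the aged ileum these were Slc5a1 (0.40 ± 0.21, adjusted p = 0.465) and Ezr (0.24 ± 0.13, adjusted p = 0.484). In the young ileum they were Lct (-1.59 ± 0.76, adjusted p = 0.9997), whose level reached 0.19 on young flox 3, the highest of all arrays, Slc11a2 (-0.19 ± 0.11, adjusted p = 0.9997) and Slc1a1 (-0.36 ± 0.23, adjusted p = 0.9997). Lct was well above background on 3 of 4 young ileum arrays of each genotype. In the colon 2 members (Treh and Slc5a1) were higher and 4 (Cubn, Mep1a, Slc46a1 and Slc7a8) lower without overlap between genotypes, against 4.66% and 3.62% of the genes with a value on all 7 arrays. In the aged and the young ileum no member was free of overlap, against 14.1% and 2.21% of the genes with a value on every array. The lists of other genes of the pathway also gave 0 genotype calls by limma: 0 of 95 in the colon, 0 of 93 in the aged ileum and 0 of 93 in the young ileum, with 13, 13 and 4 at an unadjusted p under 0.05. The smallest p among them were those of Slc5a9 (1.40 ± 0.32, adjusted p = 0.302) and Slc16a10 (-0.65 ± 0.17, adjusted p = 0.364) in the colon, and Slc38a1 (-0.39 ± 0.11, adjusted p = 0.183) and Rab11a (0.28 ± 0.08, adjusted p = 0.225) in the aged ileum, and Slc29a1 (-0.25 ± 0.10, adjusted p = 0.9997) and again Slc38a1 (-0.24 ± 0.10, adjusted p = 0.9997) in the young ileum.

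**Figure D5:**
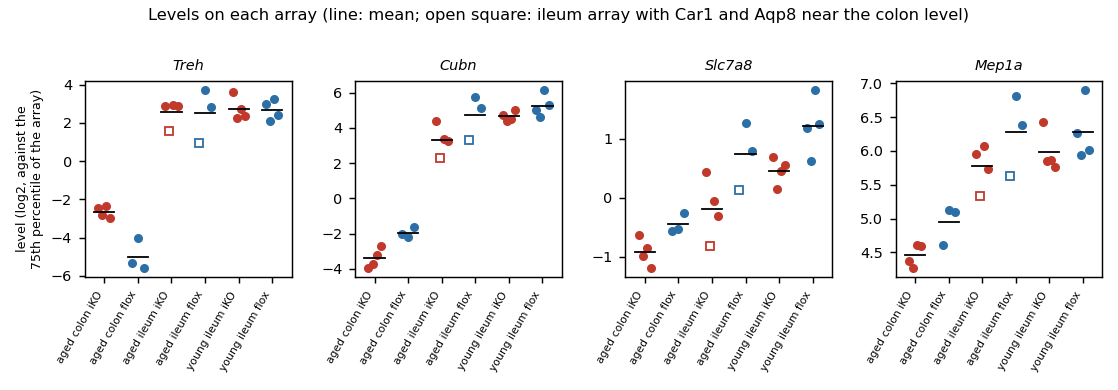
Levels of Treh, Cubn, Slc7a8 and Mep1a on every array, as log2 signal relative to the 75th percentile of the array, with iKO in red to the left of flox in blue and a line at each group mean. Open squares are aged ileum iKO 2 and aged ileum flox 1. In the colon the iKO arrays lie above flox for Treh and below flox for the other 3 genes.

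Members differed in how steady they were among ileum arrays of 1 group. The pooled within-group SD, on the log2 scale, was 0.15 for Slc11a2, 0.16 for Ush1c, 0.16 for Vil1 and 0.18 for Anpep. It was 1.53 for Mme, 1.18 for Lct, 1.07 for Slc6a20a, 1.00 for Pdzk1, 0.79 for Cubn and 0.78 for Sis. With the 2 arrays with colon-level Car1 left out it was 0.81 for Mme, 1.23 for Lct, 0.89 for Slc6a20a, 0.56 for Pdzk1, 0.52 for Cubn and 0.62 for Sis, and 0.14 for Vil1 and 0.14 for Anpep. The median over the 38 members was 0.35 in the ileum, 0.28 without those arrays, and 0.35 in the colon. Young flox 3 was the highest of the 15 ileum arrays for 14 members, among them Sis (7.99), Cubn (6.15), Pdzk1 (6.19) and the fructose carrier Slc2a5 (3.83), and young iKO 1 for 15. Slc2a2 read -0.49 on young flox 3, against -6.50 on young iKO 3, which was not well above background.

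Other genes of the pathway, kept in lists of their own, were read beside the members. Of 8 further brush border enzymes tested, 8 were lower in the colon in each genotype. Xpnpep2, an aminopeptidase acting before proline, differed by -5.98 ± 0.38 (adjusted p = 2.3e-06) in flox, and Ggt1, gamma-glutamyltransferase, by -6.72 ± 0.40 (adjusted p = 3e-07) in iKO. Of 20 further microvillus proteins, 15 were lower and 1 higher in iKO colon, and 12 lower and 1 higher in flox colon. Of 43 further carriers tested, 24 were lower and 8 higher in iKO colon, and 22 lower and 8 higher in flox colon. The anion exchanger Slc26a6 differed by -6.25 ± 0.26 (adjusted p = 1.66e-08) in iKO and -6.53 ± 0.30 (adjusted p = 7.01e-08) in flox. 

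Of 24 regulators known from enterocyte genes, 11 were lower and 8 higher in iKO colon, and 9 lower and 6 higher in flox colon. Maf differed by -3.67 ± 0.22 (adjusted p = 3.7e-07) in iKO and -3.51 ± 0.26 (adjusted p = 3.68e-06) in flox. Hnf4g and Gata5 were picked after their values were seen because their motifs were searched above. The CDX and HNF1 factors, whose motifs were also searched, and any other HNF4 or GATA factors are not given between tissues. Hnf4g and Gata5 therefore do not stand for the factors of the searched motifs. Hnf4g differed by -2.57 ± 0.20 (adjusted p = 2.09e-06) in iKO and -2.54 ± 0.23 (adjusted p = 1.45e-05) in flox. Gata5, the lowest of the 24 regulators, differed by -6.13 ± 0.42 (adjusted p = 9.3e-07) in iKO and -6.33 ± 0.49 (adjusted p = 4.45e-06) in flox. The 24 regulators had a median difference of -0.16 in iKO and -0.06 in flox, and reached 2.09 in iKO and 1.82 in flox. With age, 2 regulators were lower and 5 higher in iKO ileum, and 1 lower and 3 higher in flox ileum, of 23 tested. Of all genes, 5.09% passed as higher with age in iKO and 3.38% in flox. Cdx2, the intestinal homeobox factor, read 4.12, 4.30, 4.15 and 4.10 on aged iKO arrays, against 5.70, 5.59, 5.41 and 5.65 on young iKO arrays. Flox arrays gave 4.15, 4.09 and 4.26 in aged ileum, against 5.74, 5.57, 5.81 and 5.70 in young ileum. Every aged array lay below every young array. Cdx2 fell by 1.42 ± 0.09 in iKO (adjusted p = 3.29e-07) and by 1.54 ± 0.09 in flox (adjusted p = 3.73e-07). Onecut2 was higher with age by 1.59 ± 0.35 (adjusted p = 0.0139) in iKO and 1.88 ± 0.37 (adjusted p = 0.0115) in flox. Anks4b, a protein of the microvillus tip link, was lower with age, at -0.63 ± 0.12 (adjusted p = 0.00818) in iKO and -0.69 ± 0.13 (adjusted p = 0.0092) in flox. Epas1 was higher by 1.14 ± 0.21 (adjusted p = 0.00816) in flox and Klf5 by 0.45 ± 0.10 (adjusted p = 0.0169) in iKO.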

How the data were processed

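Total RNA of whole ileum or colon, extracted with TRIzol, was hybridised to 1-colour Agilent whole mouse genome arrays, per the labels' protocols. The deposited files hold scanner intensity per spot as read by Agilent Feature Extraction 9.5, per the file headers, where background was also subtracted and outlier spots marked, and the authors' value table repeats the processed intensity without further normalization, as tested on the values. The array's gene names, flags and slide positions were read from the deposited files as other columns. Genes were named through RefSeq accessions and symbols where these matched, and otherwise by the name in the file.

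Control and flagged spots were left out, spots of a probe averaged, and log2 of the processed signal taken minus the 75th percentile of the array. The brightest probe stood for a gene. Genes had to be well above background throughout 1 or more groups of a fit to be tested. limma 3.58.1 in R 4.3.3 was fitted to the 15 ileum, the 7 colon and the 14 aged arrays, with Benjamini-Hochberg adjustment over all genes tested (15489, 19568 and 19621) and a threshold of 0.05. Errors after ± beside a difference are standard errors of the fit. Where a gene was not well above background on any array of a group, its fold was taken against the lowest signal well above background. This is not a strict bound where the brighter group also held arrays not well above background. The number of arrays limits the precision. The fits were tested on simulated data. Named with full statistics were, per comparison, the passing members with the largest difference, up to 12, or the 5 with the smallest p where fewer than 5 passed. Of the other lists, up to 4 passing genes by smallest p were named, or the 2 with the smallest p. 1 gene that this rule names is not reported here. The members and lists were chosen with earlier results of these data known. Replicate numbers were taken from the labels. Sequences were read from RefSeq promoters of GRCm38.p6, and motifs counted with Python 3.11.15.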

Additional observations from a re-analysis of the deposited data

Results flagged for a closer look

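Of 160 groups of 4 arrays and members looked at, 9 held an array far from the other 3 by Dixon's test at the 95% level. A test at this level flags some groups by chance alone. How many was not computed, and groups of different members share arrays. Treh read 1.57 on aged ileum iKO 2, against 2.87 to 2.95 on the other arrays of that group. Pdzk1 read 1.73 on the same array, against 3.80 to 4.18, and Slc16a1 3.54, against 2.64 to 2.74. That array is 1 of the 2 ileum arrays with colon-level Car1, and the part of the colonocyte signal in these values was not tested. On young ileum iKO 1, Mep1a read 6.43, against 5.76 to 5.87 on the others, and Cdhr2 5.61, against 4.82 to 4.93. Lct read -4.72 on young ileum iKO 3, against -3.61 to -3.51, and -1.91 on aged ileum iKO 1, against -3.52 to -3.39. It was well above background on 3 of 4 arrays in each of these groups. In the colon, Slc40a1 read 2.72 on aged colon iKO 1, against 3.40 to 3.48, and Dpp4 0.77 on aged colon iKO 4, against 0.93 to 0.95, a gap of under 0.2 on the log2 scale. No difference between genotypes in the age or tissue contrast passed for a member.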

How the results depend on the processing

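Of the values of named members under the alternatives, 1367 kept their direction and side of the threshold, 38 were no longer past it, 11 passed it newly and 1 turned: Espn in the genotype by tissue contrast was 0.12 with slide as a fixed factor. For age in flox ileum, where 3 members passed, 0 passed after quantile normalization, with no filter on dim probes, with slide as a fixed factor and without the 2 ileum arrays with colon-level Car1 (an alternative chosen after seeing the data), and 1 with the mean over probes or with only the groups in the contrast. Leaving out each array in turn gave 0 to 4. For age in iKO ileum, where 1 passed, 2 passed with the stricter filter, with only the groups in the contrast and without those 2 arrays, and 1 to 3 with each array left out. For the genotype in the colon, leaving out each array gave 0 to 1, the 1 being Treh without colon flox 3. The causes were not tested. With the replicate number as a replicate block, 3 members passed with age in iKO, against 1 without it, and 4 in flox. The numbers could not be shown to pair the samples, since 21 of 51 same-numbered pairs correlated above 0.1 (-0.40 to 0.44) and 20 correlated best with their own number. Over all genes, counts ran from 408 to 1546 with age in flox (main 1344), 663 to 1921 in iKO (main 1692), 4542 to 10983 between tissues in flox (main 6420) and 7036 to 13513 in iKO (main 8565). For the genotype they ran from 1 to 46 in the colon (main 23), 5 to 52 in aged ileum (main 26) and 3 to 13 in young ileum (main 7). Normexp background correction turned the tissue split in flox to 2840 higher and 3761 lower, against 3655 and 2765, and quantile normalization the age split in flox to 458 and 436, against 524 and 820. Without the filter on dim probes the median of all genes between tissues was -0.15 in iKO and -0.13 in flox, against 0.07 and 0.08. Slide as a fixed factor could not be fitted between tissues, since no slide held both. Signal over background limits Mme, Slc2a2 and Slc19a3. It also limits Lct in the ileum, which was well above background on 3 of 4 arrays in each of young flox, young iKO and aged iKO ileum.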
